A study of Mus musculus with 6 samples.

Results

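Glutathione transferases, glucuronosyltransferases and sulfotransferases, the main conjugating enzymes of drug and steroid metabolism, were examined in mouse kidney cortex. The genes were taken by name, as every probe of the array whose annotated symbol begins with Gsta, Gstk, Gstm, Gsto, Gstp, Gstt, Gstz, Mgst, Ugt or Sult and a digit. This gave 101 of the array's 45281 probes and 62 of its 19057 named genes. Each of 6 Illumina MouseWG-6 v2 bead arrays carried the cortex RNA of another male C57BL6 mouse. The 3 captopril mice drank water that supplied 10 mg/kg of captopril, an inhibitor of angiotensin-converting enzyme, each day, starting at 11 weeks of age and lasting 7 days. The 3 control mice were of the same sex and strain, and all 6 are labelled as 12 weeks old. The mice were housed in groups, and which of them shared a cage or a litter is not stated. The series asks which cortex transcripts respond to the inhibitor, and with 3 arrays per group the number of arrays limits the precision of every value.

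Cytosolic and microsomal glutathione transferases couple reactive molecules to the tripeptide glutathione, and the kidney turns such conjugates into mercapturates. Glucuronosyltransferases of the endoplasmic reticulum transfer a sugar from a UDP-sugar, most often glucuronic acid, and cytosolic sulfotransferases transfer sulfate from the donor PAPS. In the kidney many of these enzymes are known from the proximal tubule, which makes up most of the cortex. Which cells gave the signal of each gene was not examined.

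Of the 62 genes, 34 were detected, meaning that 3 or more of the 6 arrays gave at least 1 of their probes a detection p below 0.05. Glutathione transferases were detected almost throughout, with 20 of 22 cytosolic or kappa-class genes and 3 of 3 microsomal genes. Glucuronosyltransferases and sulfotransferases were mostly not detected, with 7 of 21 and 4 of 16 genes. The share over all members was 54.8%, against 51.0% of all named genes. Of the detected genes, 32 had their brightest probe detected on all 6 arrays, and 0 were detected in only 1 of the groups. A further 8 genes had a probe above the limit on 1 or 2 arrays, and 20 had none on any array, which leaves their transcripts below the limit of these probes and does not show them absent. In whole cortex, fewer cells of a type and less RNA per cell cannot be told apart.

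**Figure D1:**
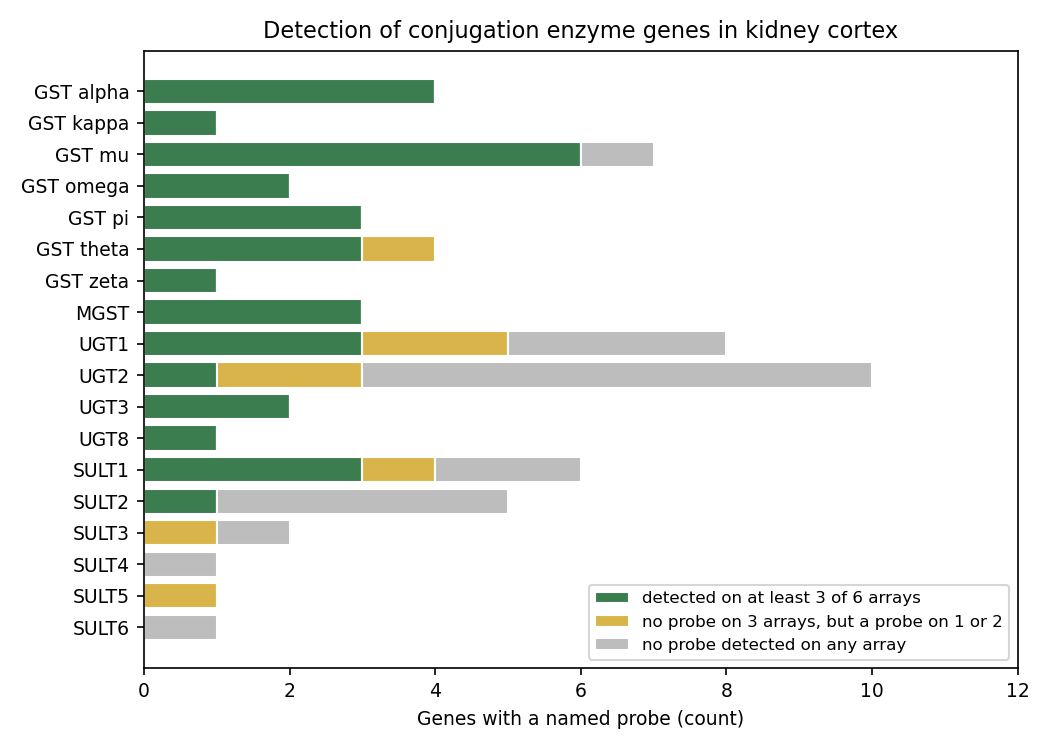
Number of genes with a named probe in each enzyme family, split by how many of the 6 arrays detected them. Alpha, kappa, omega, pi and zeta glutathione transferases, the microsomal group, UGT3 and UGT8 were detected in full, whereas UGT2 had 1 of 10 genes detected and SULT3 to SULT6 had 0.

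All 4 alpha-class genes were detected, namely Gsta1, Gsta2, Gsta3, which in mouse conjugates the epoxide of aflatoxin, and Gsta4, which clears the lipid peroxidation product hydroxynonenal. In the mu class Gstm1, Gstm2, Gstm4, Gstm5, Gstm6 and Gstm7 were detected and Gstm3 was not, on any array. The pi genes Gstp1, Gstp2 and Gstp3, the omega genes Gsto1 and Gsto2, and the theta genes Gstt1, Gstt2 and Gstt3 were detected, and Gstt4 was above the limit on 1 control array. Gstk1, of the class found in mitochondria and peroxisomes, and Gstz1, the maleylacetoacetate isomerase of tyrosine breakdown, were detected, as were Mgst1, Mgst2 and Mgst3. Members of a class are close copies of each other, and no probe sequences were used here, so a signal may come in part from a related gene.

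Of 8 UGT1 genes, Ugt1a10, Ugt1a7c and Ugt1a6a were detected, Ugt1a2 and Ugt1a6b had a probe above the limit on 1 or 2 arrays, and Ugt1a1, whose human counterpart conjugates bilirubin, Ugt1a5 and Ugt1a9 had none. These genes are alternative first exons of a shared locus and have their last exons in common, so a probe in the common part reads them all. The 6 probes named Ugt1a10 fell into 3 that were detected on all 6 arrays and 3 that were detected on at most 1. Of 10 UGT2 genes, whose products mainly handle steroids and bile acids, 1 was detected, Ugt2b36. Ugt2a2 and Ugt2b38 were above the limit on 1 array each, and Ugt2a1, Ugt2a3, Ugt2b1, Ugt2b34, Ugt2b35, Ugt2b37 and Ugt2b5 on 0. Both UGT3 genes, Ugt3a1 and Ugt3a2, were detected; their human counterparts use UDP-sugars other than UDP-glucuronic acid. Ugt8a, which makes galactosylceramide, the precursor of the kidney lipid sulfatide, was detected too.

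Among the sulfotransferases Sult1a1, a phenol sulfotransferase, Sult1c2, Sult1d1, which in mouse sulfates catecholamines, and Sult2b1, the cholesterol sulfotransferase, were detected. Sult1b1, Sult3a1 and Sult5a1 had a probe above the limit on 1 or 2 arrays. The oestrogen sulfotransferase Sult1e1, the hydroxysteroid sulfotransferases Sult2a1, Sult2a2, Sult2a6 and Sult2a8, and Sult1c1, Sult3a2, Sult4a1 and Sult6b1 had none. Detection differed between neighbours on the chromosome. In RefSeq's order on the GRCm38.p6 assembly, with members no more than 1000000 bases apart taken as a cluster, 13 named genes lie together on chromosome 5, and Ugt2b36 and Sult1d1 were the 2 detected. In the mu-class cluster on chromosome 3, 6 of 7 were detected, in the theta cluster on chromosome 10, 3 of 4, and in the Ugt1a locus on chromosome 1, 3 of 8. In the Sult2a cluster on chromosome 7, 0 of 4 were detected.

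Promoter windows of RefSeq, from 250 bases before to 50 after an annotated start on GRCm38.p6, were found for 55 of the 62 genes (67 windows) and 6 of them, each with a searched motif, are shown to set the letters beside the detection described above. The antioxidant response element core TGACNNNGC, bound by the stress factor NRF2, was searched on both strands. It was found in 4 of 31 detected members (12.9%), namely Gsta3, Gstm5, Gstm7 and Mgst1, and in 0 of 24 members not detected. The share was 14% of all 27025 genes with a window and 16.8% of the other named genes detected. A gene counted if any of its windows matched, and Gstm7 and Mgst1 each had another window without a match. Other spellings of the site and bases outside the windows were not searched, so a gene without a match is not shown to lack the element. Per window the share was 9.76% in detected members, against 14.1% in the other named genes detected. The windows of Gsta3 at chr1:21240335-21240634 (+ strand), Gstm7 at chr3:107931565-107931864 (- strand) and Mgst1 at chr6:138140277-138140576 (+ strand) follow, 5′ to 3′, with the match in capitals; in Mgst1 it lies on the reverse strand.
Gsta3: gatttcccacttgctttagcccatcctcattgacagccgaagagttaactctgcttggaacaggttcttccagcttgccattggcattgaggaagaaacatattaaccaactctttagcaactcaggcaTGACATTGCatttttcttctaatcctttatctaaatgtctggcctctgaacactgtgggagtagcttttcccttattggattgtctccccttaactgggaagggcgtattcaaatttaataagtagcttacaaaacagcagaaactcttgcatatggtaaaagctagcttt
Gstm7: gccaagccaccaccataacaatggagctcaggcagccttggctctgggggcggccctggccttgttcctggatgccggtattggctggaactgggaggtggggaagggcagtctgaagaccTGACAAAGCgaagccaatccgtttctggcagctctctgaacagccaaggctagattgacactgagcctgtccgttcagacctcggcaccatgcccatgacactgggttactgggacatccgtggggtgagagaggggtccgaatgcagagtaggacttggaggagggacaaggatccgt
Mgst1: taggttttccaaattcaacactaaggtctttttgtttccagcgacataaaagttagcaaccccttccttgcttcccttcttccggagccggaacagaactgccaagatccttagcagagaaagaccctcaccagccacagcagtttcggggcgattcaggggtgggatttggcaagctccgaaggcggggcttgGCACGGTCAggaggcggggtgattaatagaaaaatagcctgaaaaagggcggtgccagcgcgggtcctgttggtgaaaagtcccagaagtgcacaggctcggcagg

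A stretch of the site of HNF1, a transcription factor of liver and proximal tubule, GTTAATNAT, was searched on both strands after detection had been seen. It stood in the windows of 2 of 31 detected members (6.45%), Sult1d1 and Ugt1a10, and in 3 of 24 members not detected (12.5%), Ugt1a1, Ugt1a9 and Sult2a6. The share was 0.94% of all genes with a window and 0.574% of the other named genes detected. The stretch is rich in A and T, and base composition was not matched in these shares. Sult1d1 is shown at chr5:87568957-87569256 (- strand), Ugt1a10 at chr1:88055161-88055460 (+ strand) and Ugt1a9 at chr1:88070529-88070828 (+ strand), again with the match in capitals, since probes named Sult1d1 and Ugt1a10 were detected and those named Ugt1a9, whose window resembles that of Ugt1a10, were not.
Sult1d1: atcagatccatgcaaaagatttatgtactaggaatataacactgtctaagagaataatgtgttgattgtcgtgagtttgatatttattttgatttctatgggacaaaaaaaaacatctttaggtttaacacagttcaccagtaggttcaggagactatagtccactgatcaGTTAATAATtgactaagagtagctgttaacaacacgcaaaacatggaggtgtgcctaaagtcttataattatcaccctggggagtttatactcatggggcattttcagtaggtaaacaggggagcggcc
Ugt1a10: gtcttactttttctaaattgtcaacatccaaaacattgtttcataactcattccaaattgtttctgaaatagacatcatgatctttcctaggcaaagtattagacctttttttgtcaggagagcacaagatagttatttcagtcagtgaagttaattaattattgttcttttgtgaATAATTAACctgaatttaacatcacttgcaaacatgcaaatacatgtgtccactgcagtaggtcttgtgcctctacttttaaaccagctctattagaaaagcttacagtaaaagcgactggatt
Ugt1a9: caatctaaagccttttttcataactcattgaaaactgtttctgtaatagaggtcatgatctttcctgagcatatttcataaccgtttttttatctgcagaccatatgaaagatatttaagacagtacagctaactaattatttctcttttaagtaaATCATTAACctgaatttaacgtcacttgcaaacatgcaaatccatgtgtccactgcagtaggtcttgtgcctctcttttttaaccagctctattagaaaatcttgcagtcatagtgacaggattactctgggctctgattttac

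In a global alignment the Ugt1a10 and Ugt1a9 windows were identical at 70.9% of columns, against 43.4% to 48.8% for the other pairs of Ugt1a windows, and the motif in both lies on the reverse strand. A match is a string of letters and not a measured site. That Ugt1a10 counts as detected and Ugt1a9 does not rests on the names of their probes, since a probe in the common exons reads every gene of the locus and 3 of the 6 probes named Ugt1a10 were detected on at most 1 array.

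Signals are given below as log2 values after background correction and normalization with limma's neqc. How bright a probe is depends on its own sequence as well as on its transcript, so signals of different genes are given as levels of their probes and set in no order of abundance. Over the detected genes, each at its brightest tested probe, the median signal was 10.1, against 7.71 over the 9718 named genes tested. The median of the probes in an array averaged 9.82 ± 0.13 in captopril and 9.76 ± 0.10 in control mice for the 20 glutathione transferases, and 9.98 ± 0.19 in captopril and 10.17 ± 0.07 in control mice for the 3 microsomal ones (SD, n = 3 mice each). It averaged 10.76 ± 0.26 in captopril and 10.99 ± 0.08 in control mice for the 7 glucuronosyltransferases, and 9.59 ± 0.11 in captopril and 9.56 ± 0.15 in control mice for the 4 sulfotransferases. For each of the 4 groups of enzymes the difference between captopril and control means was smaller than the larger of the 2 SDs.

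Outside the Ugt1a locus, 3 genes with bright probes show how far mice differed. Ugt3a2 stood at 14.55, 14.40 and 14.55 in captopril mice, against 14.60, 14.57 and 14.63 in control mice. Its neighbour Ugt3a1 stood at 13.24, 13.22 and 13.19 in captopril mice, against 13.15, 13.27 and 13.39 in control mice. Gstz1 stood at 13.13, 13.07 and 13.04 in captopril mice, against 13.26, 13.11 and 13.05 in control mice. Of these genes Ugt3a2 had each captopril mouse below each control mouse, by a small step, and in Ugt3a1 and Gstz1 the groups overlapped. The median SD within a group over the 34 genes was 0.16 in captopril and 0.15 in control mice, against 0.17 in both groups over all tested genes. It was largest in captopril mice for Gsto2 (0.41) and in control mice for Gstp3 (0.46), both close to the detection limit.

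**Figure D2:**
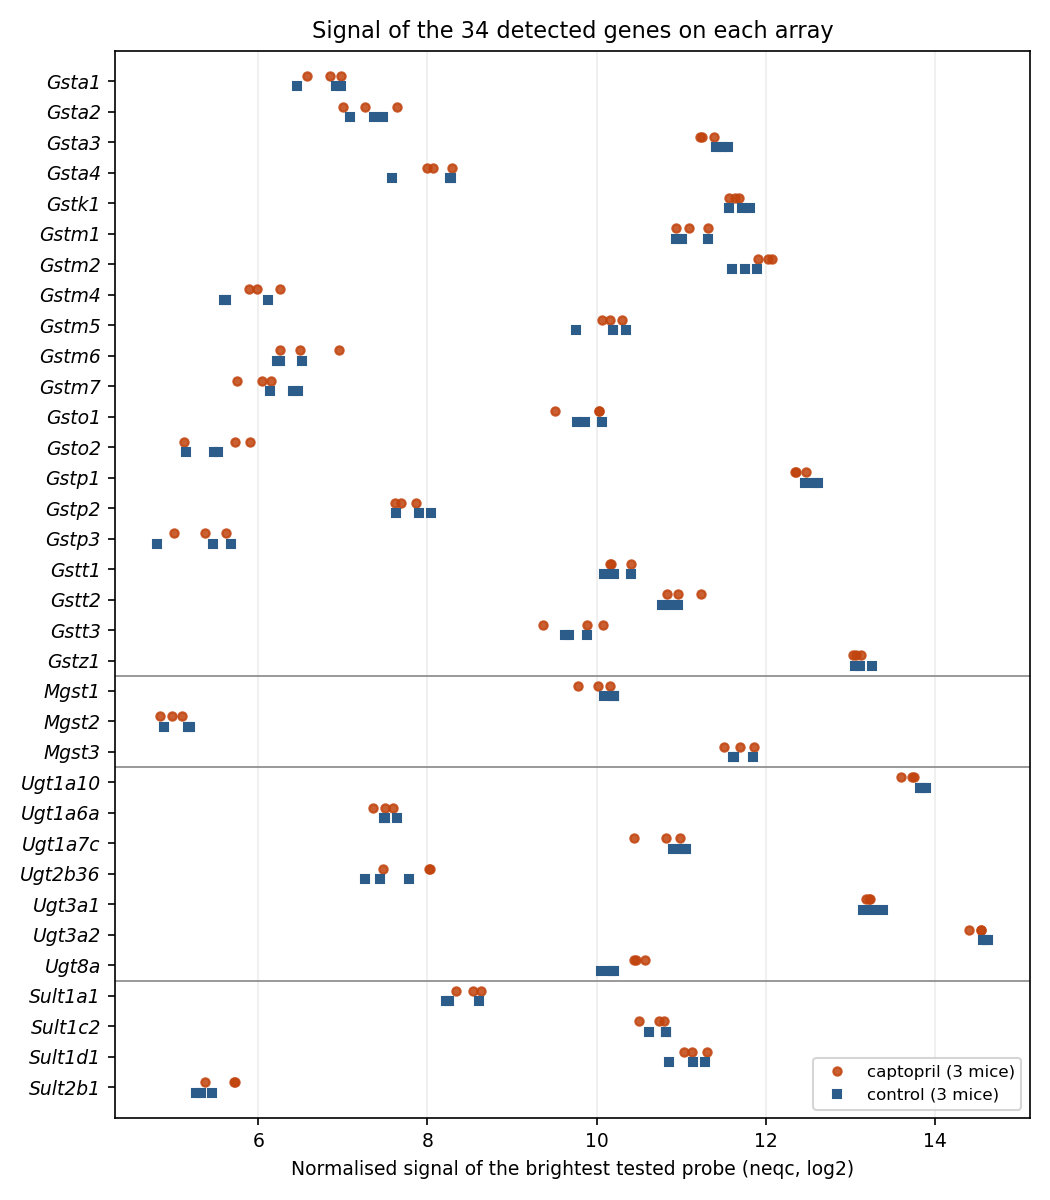
Normalised log2 signal of the brightest tested probe of each of the 34 detected genes (x axis), with 1 point per mouse, captopril as circles above control as squares; lines part glutathione transferases, microsomal glutathione transferases, glucuronosyltransferases and sulfotransferases. Most genes show overlapping groups, and Ugt8a shows the clearest gap, with captopril at 10.44 to 10.58 and control at 10.06 to 10.21.

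Captopril was compared with control in limma over all 16500 probes detected on at least 3 arrays, two-sided, with Benjamini-Hochberg adjustment over all of them and a threshold of 0.05. Of the 34 genes, 0 were higher and 0 were lower past the threshold, and over the 9718 named genes tested the shares were likewise 0% and 0%. Over all probes 0% were higher and 0.0182% lower, and none of those was a member. At an unadjusted p under 0.05 there was 1 member gene, Ugt8a, which is 2.94% of 34, against 3.69% of all named genes tested. Counted by probe there were 3 of 51 (5.88%), 1 each of Ugt8a, Mgst1 and Sult2b1, against 4.28% of all probes tested. Adjusted p values of the members in limma lay between 0.995 and 0.999. Of the 34 genes 17 had higher and 17 lower values in captopril mice, with a median log2 difference of 0.0036, against -0.0034 over all named genes. Scaling by array medians in place of quantiles made this split 24 higher and 10 lower, and the share of all named genes with a higher value 69.0% in place of 49.1%.

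All 34 differences were under 0.5 on the log2 scale in size, and 28 were under 0.25. The 95% intervals of 20 genes lay within 0.5 of 0 on the log2 scale, and those of all 34 lay within 1. Each interval gives the differences compatible with the values of 3 mice per group, without adjustment for the number of probes, and not the size that could be detected. In 5 of the 34 genes (14.7%) the groups did not overlap, 2 higher and 3 lower in captopril mice, against 8.73% of all named genes, 3.98% higher and 4.74% lower. By probe the groups were apart in 9 of 51 (17.6%), against 8.69% of all probes tested. Gstm2 and Ugt1a10 each entered that count by more than a single probe, and such probes are not independent.

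**Figure D3:**
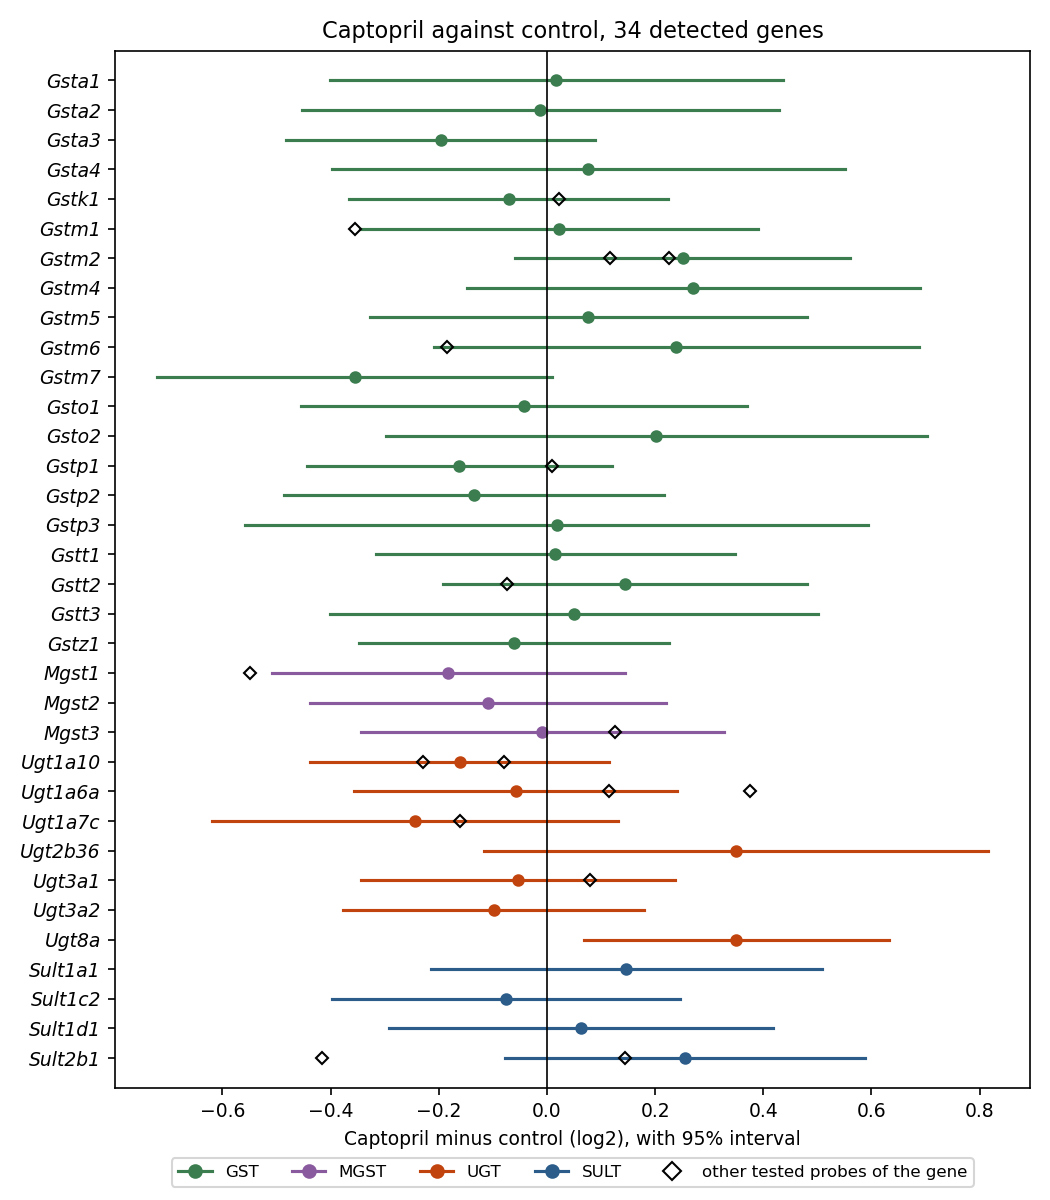
Captopril minus control on the log2 scale for the 34 detected genes, as the difference at the brightest tested probe with its 95% interval from limma; open diamonds are the other tested probes of the gene. The interval of Ugt8a, 0.068 to 0.63, is the only one of the 34 that leaves out 0, and 0 genes passed after adjustment.

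Ugt8a, the ceramide galactosyltransferase gene, stood at 10.44, 10.58 and 10.47 in captopril mice, against 10.21, 10.17 and 10.06 in control mice. Its deposited intensities, before any normalization, were 1888, 1360 and 1576 in captopril mice, against 1353, 1081 and 1121 in control mice. Every captopril mouse was above every control mouse. The difference was 0.35 (SE 0.12, 95% interval 0.068 to 0.63) with adjusted p = 0.995 in limma. Captopril was higher in each of the 16 other settings that gave it a value, by 0.30 to 0.44. Settings that changed only the filter, the variance estimate or the replicate block could not alter the difference. Averaging a gene's probes could not either, as Ugt8a had 1 tested probe. With the groups apart, leaving out an array could turn the sign only through the renewed normalization, so those settings add no separate support. The other Ugt8a probe was not detected on any array and gives no second reading. Ugt2b36, the detected UGT2 gene, stood at 8.02, 7.48 and 8.03 in captopril mice, against 7.78, 7.26 and 7.44 in control mice. Its groups overlapped and its difference of 0.35 (SE 0.20, 95% interval -0.12 to 0.82) did not pass.

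Among the mu-class genes Gstm2 had 3 tested probes, all with higher values in captopril mice. The brightest stood at 12.03, 11.91 and 12.07 in captopril mice, against 11.60, 11.76 and 11.90 in control mice. The next stood at 11.73, 11.78 and 11.74 in captopril mice, against 11.62, 11.65 and 11.63 in control mice, and in both the groups did not overlap, with the lowest captopril value of the brightest probe next to the highest control value. Their differences were 0.25 (SE 0.13, 95% interval -0.059 to 0.56) and 0.12, and the third probe gave 0.22 with overlapping groups. Gstm4 stood at 6.25, 5.99 and 5.89 in captopril mice, against 6.11, 5.62 and 5.59 in control mice, a difference of 0.27 (SE 0.18, 95% interval -0.15 to 0.69). Gstm6 stood at 6.26, 6.50 and 6.96 in captopril mice, against 6.25, 6.22 and 6.52 in control mice, a difference of 0.24 (SE 0.20, 95% interval -0.21 to 0.69), and its dimmer probe gave -0.19. In Gstm4 and Gstm6 the groups overlapped.

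Gstm7 went the other way in value, at 6.15, 6.05 and 5.75 in captopril mice, against 6.14, 6.41 and 6.47 in control mice. Its groups overlapped at 1 control mouse, and the difference was -0.36 (SE 0.16, 95% interval -0.72 to 0.010). Gstm1 and Gstm5 differed by 0.022 and 0.077, and the dimmer Gstm1 probe, detected on 2 captopril and 3 control arrays, gave -0.35. Of 6 mu-class genes 5 thus had higher values and 1 a lower value in captopril mice, with a median of 0.16, and 0 passed in limma. Leaving out control mouse 2 gave Gstm5 a value of -0.094.

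In the alpha class Gsta3 stood at 11.39, 11.25 and 11.23 in captopril mice, against 11.49, 11.41 and 11.56 in control mice. The groups did not overlap, and the difference was -0.20 (SE 0.12, 95% interval -0.48 to 0.089). Gsta1 stood at 6.85, 6.58 and 6.97 in captopril mice, against 6.46, 6.92 and 6.98 in control mice. Gsta2 stood at 7.26, 7.00 and 7.64 in captopril mice, against 7.09, 7.48 and 7.37 in control mice, and in both of these genes captopril mouse 2 and control mouse 1 were the lowest of their groups, with differences of 0.017 and -0.013. Gsta4 differed by 0.077.

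Gstp1, the pi-class transferase gene, stood at 12.34, 12.36 and 12.47 in captopril mice, against 12.62, 12.47 and 12.58 in control mice. Its highest captopril value and lowest control value met at 12.47, and the difference was -0.16 (SE 0.12, 95% interval -0.44 to 0.12). Its other detected probe gave 0.0091, and the near copies Gstp2 and Gstp3 gave -0.13 and 0.018. Gstk1 stood at 11.69, 11.64 and 11.57 in captopril mice, against 11.81, 11.56 and 11.73 in control mice, a difference of -0.070 (SE 0.13, 95% interval -0.37 to 0.22). Its dimmer probe gave 0.022. Gstt2 stood at 11.23, 10.83 and 10.96 in captopril mice, against 10.85, 10.78 and 10.97 in control mice, a difference of 0.14 (SE 0.15, 95% interval -0.19 to 0.48), while its second probe gave -0.074. Gstt1 and Gstt3 differed by 0.015 and 0.050. Gsto1, which reduces dehydroascorbate, stood at 9.50, 10.03 and 10.03 in captopril mice, against 9.86, 10.06 and 9.77 in control mice, a difference of -0.042 (SE 0.18, 95% interval -0.45 to 0.37), and Gsto2 differed by 0.20. Gstz1 differed by -0.061. In all of these the groups overlapped.

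The microsomal transferase gene Mgst1 had 2 probes, both with lower values in captopril mice. The brighter stood at 10.16, 10.01 and 9.78 in captopril mice, against 10.09, 10.20 and 10.21 in control mice, with overlapping groups and a difference of -0.18 (SE 0.14, 95% interval -0.51 to 0.14). The dimmer stood at 7.28, 6.72 and 7.24 in captopril mice, against 7.82, 7.57 and 7.49 in control mice, without overlap, a difference of -0.55 with adjusted p = 0.995 in limma. Mgst3 stood at 11.51, 11.70 and 11.86 in captopril mice, against 11.61, 11.63 and 11.85 in control mice, a difference of -0.0082 (SE 0.15, 95% interval -0.34 to 0.33), and its other probe gave 0.12. Mgst2, whose product can make a cysteinyl leukotriene, was detected on 1 captopril and 2 control arrays and differed by -0.11.

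In the UGT1 locus the 3 detected Ugt1a10 probes all had lower values in captopril mice. The brightest stood at 13.73, 13.75 and 13.61 in captopril mice, against 13.83, 13.85 and 13.89 in control mice. The dimmest stood at 12.71, 12.72 and 12.38 in captopril mice, against 12.85, 12.86 and 12.78 in control mice. In both the groups did not overlap, and their differences were -0.16 (SE 0.12, 95% interval -0.44 to 0.12) and -0.23. The probe between them in brightness gave -0.079, and its groups overlapped. Ugt1a7c stood at 10.98, 10.82 and 10.44 in captopril mice, against 10.90, 11.02 and 11.06 in control mice, with captopril mouse 3 the lowest and the groups overlapping, a difference of -0.24 (SE 0.16, 95% interval -0.62 to 0.13), and its dimmer probe gave -0.16. Ugt1a6a differed by -0.058, and its 2 dimmer probes gave 0.12 and 0.37. These probes may read the same shared exons, so they are not independent of each other. Ugt3a2 and Ugt3a1 differed by -0.099 (SE 0.12, 95% interval -0.38 to 0.18) and -0.054 (SE 0.13, 95% interval -0.34 to 0.24), and the dimmer Ugt3a1 probe gave 0.080.

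Of the sulfotransferases Sult1d1 stood at 11.31, 11.04 and 11.13 in captopril mice, against 11.14, 11.29 and 10.86 in control mice, a difference of 0.063 (SE 0.15, 95% interval -0.29 to 0.42). Sult1a1 and Sult1c2 differed by 0.15 and -0.076. Sult2b1 had 3 tested probes that disagreed. The brightest stood at 5.71, 5.37 and 5.72 in captopril mice, against 5.45, 5.26 and 5.32 in control mice, a difference of 0.26 (SE 0.15, 95% interval -0.078 to 0.59). The second gave 0.15, and the third, detected on 1 captopril and 3 control arrays, gave -0.42 without overlap. Probes differed in sign in 9 of the 13 member genes with several tested probes, the others being Ugt1a7c, Ugt1a10, Gstm2 and Mgst1.

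**Figure D4:**
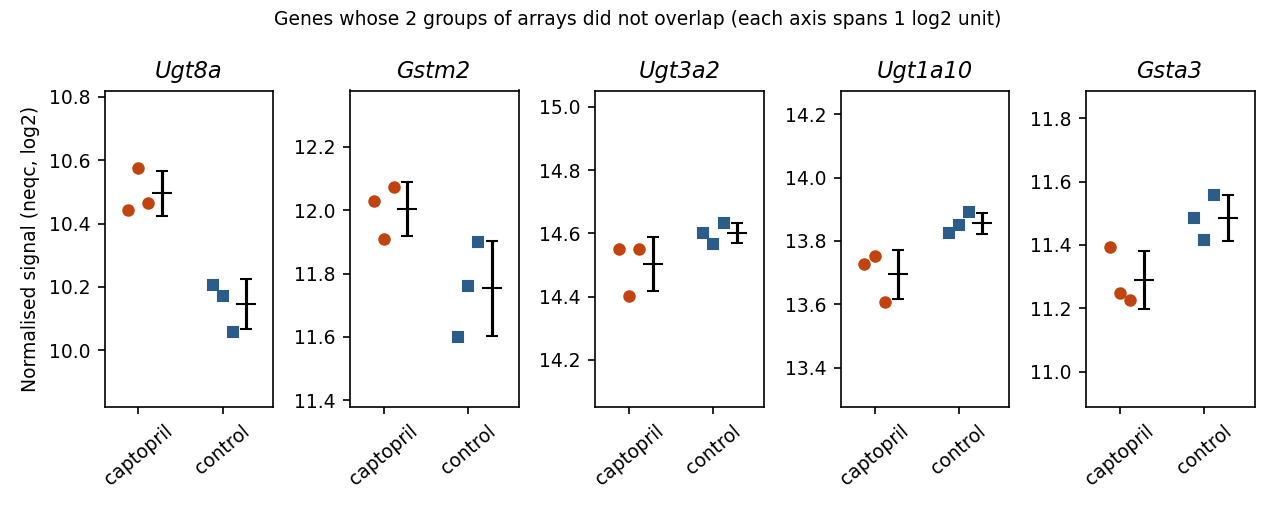
Normalised log2 signal of the 5 genes whose captopril and control mice did not overlap, with 1 point per mouse and the mean ± SD beside it; each axis spans 1 log2 unit. Ugt8a and Gstm2 had higher and Ugt3a2, Ugt1a10 and Gsta3 lower captopril values, with differences of 0.35, 0.25, -0.099, -0.16 and -0.20.

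Differences of dim probes were smaller in the authors' deposited values, which are compressed at the dim end. There the log2 differences were -0.069 for Gstm7, 0.034 for Sult2b1, 0.044 for Gstm4, 0.059 for Gstm6, 0.030 for Gsto2 and 0.15 for Ugt2b36. They were 0.30 for Ugt8a, 0.25 for Gstm2, -0.19 for Gsta3, -0.17 for Ugt1a10 and -0.11 for Ugt3a2. The 5 genes without overlap thus differed by much the same amount on both scales, and the 6 dimmer genes named before them by less on the authors' scale. The mean signal of the 34 genes on an array, centred on each gene, ran from -0.037 to 0.032 in captopril mice and from -0.031 to 0.017 in control mice. Control mouse 3 was the highest of the 6 for 10 of the 34 genes, and for 1673 of the 9718 named genes tested. Control mouse 1 was the highest for 8 of the 34, and for 1350 of the 9718. For the 4 sulfotransferases control mouse 3 stood at -0.18, against 0.025 to 0.076 in captopril mice and -0.021 and 0.058 in the other control mice.

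The genes that feed these enzymes were described from lists of their pathways, of which 0 members passed in limma in either direction and 0 had an unadjusted p under 0.05. In glutathione supply, 7 of 10 named genes were tested, 2 higher and 5 lower in value, with a median of -0.051. Chac1, which degrades glutathione, differed by 0.29 (SE 0.26), and Ggct, which acts in the same cycle, by 0.12 (SE 0.12). Gclm, the modifier subunit of the rate-limiting ligase, differed by -0.026 (SE 0.15), and its partner Gclc was not tested. In the mercapturate pathway and conjugate export, 8 of 16 were tested, 5 higher and 3 lower, with a median of 0.15. The aminopeptidase gene Anpep differed by 0.27 (SE 0.13) and the dipeptidase gene Dpep1 by 0.23 (SE 0.16). In UDP-glucuronate supply, 6 of 10 were tested, 4 higher and 2 lower, with a median of 0.052. The glucuronidase gene Gusb differed by 0.20 (SE 0.18) and the nucleotide-sugar transporter gene Slc35d2 by -0.10 (SE 0.13).

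In sulfate donor supply, 12 of 14 were tested, 6 higher and 6 lower, with a median of -0.010. The sulfate transporter gene Slc13a1 differed by -0.44 (SE 0.26) and the anion exchanger gene Slc26a6 by -0.23 (SE 0.17), whereas Papss1 and Papss2, which make PAPS, differed by 0.080 (SE 0.14) and -0.031 (SE 0.13). Of the regulators, 10 of 14 were tested, 5 higher and 5 lower, with a median of -0.0014. The liver and tubule factor gene Hnf4a differed by 0.24 (SE 0.15), the xenobiotic receptor gene Nr1i3 by 0.28 (SE 0.19) and Nfe2l2, which encodes NRF2, by -0.17 (SE 0.19). Of NRF2 targets outside the members, 11 of 17 were tested, 7 higher and 4 lower, with a median of 0.023. The haem oxygenase gene Hmox1 differed by 0.40 (SE 0.19), the transketolase gene Tkt by 0.19 (SE 0.14) and the quinone reductase gene Nqo1 by 0.023 (SE 0.12). The median over all named genes was -0.0034.

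Of the proximal tubule markers 14 of 14 were detected. Arrays detected 36.2% to 38.2% of probes, correlated over tested probes at 0.984 to 0.987, and no pair held identical values. Of hepatocyte genes 6 of 10 were tested, 4 with higher and 2 with lower values in captopril mice. These were Ttr, Apoa1, Apoa2, Serpina1a, Fgg and Cyp2e1, each detected on all 6 arrays, and some of them the kidney also makes. Alb and Hpx were detected on 1 of 6 arrays each, and Fgb and Tat on 0. Of adrenal genes 0 of 7 were tested. Of loop of Henle, distal tubule and collecting duct genes 9 of 11 were tested, 6 with higher and 3 with lower values in captopril mice, and of blood genes 3 of 6, with 2 higher and 1 lower. Of fat genes 3 of 7 were tested. Adipoq was detected on 2 captopril and 2 control arrays, and Ucp1 and Lep each on 2 captopril and 1 control arrays. Cidec was detected on 1 captopril array, and Plin1, Fabp4 and Retn on 0. Ucp1 and Lep thus passed the filter mainly through captopril arrays, which favours higher captopril values among the genes tested. All 3 tested genes had higher values in captopril mice, with a median of 0.54, and their mean level, centred on the 6 arrays, was -0.57 to 0.70 in captopril and -0.56 to 0.14 in control mice. Macrophage genes, with 7 of 8 tested, had higher values in captopril mice in all 7 and levels of -0.34 to 0.46 in captopril and -0.19 to -0.089 in control mice. Tubular injury genes, with 4 of 5 tested, had higher values in captopril mice in all 4 and levels of -0.017 to 0.29 in captopril and -0.18 to -0.11 in control mice. All 3 glomerular genes tested had lower values in captopril mice, with levels of -0.27 to -0.016 in captopril and 0.021 to 0.24 in control mice. At an unadjusted p under 0.05 these lists held 3 genes, the injury marker Lcn2 at 0.68 (SE 0.16), the podocyte gene Nphs1 at -0.48 (SE 0.19) and the distal tubule gene Pvalb at 0.36 (SE 0.15), named after their values were seen. They were 1 of 4 injury, 1 of 3 glomerular and 1 of 9 loop, distal tubule and collecting duct genes tested. The proximal tubule, hepatocyte, fat, blood and macrophage lists held 0. Over all named genes tested the share was 3.69%, and lists this short give no firm share to set against it. Of all these lists 0 genes passed in limma, and their part in the members' values was not tested.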

How the data were processed

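Per the file headers, the authors' scanner table held an average bead intensity, linear and not normalized between arrays (medians of 111 to 147), and a detection p-value for 45281 probes on each array. The deposited processed values are of a log2 kind; the submitters' processing notes name lumi, and its version and transform are not stated. Each processed column ranked the probes as its own array did, with 7.94 as the median and 7.76 as the lowest value of every column. They served as an alternative.

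Intensities were corrected and normalized with neqc of limma 3.58.1 (R 4.3.3; negative controls taken from the detection p-values, offset 16, quantiles, log2). The 16500 probes that passed the detection filter entered lmFit and eBayes without covariates, a procedure tested on simulated data. GEO's platform annotation gave 34885 probes 1 gene symbol and 18 several, and the rest none. All 101 member probes matched the RefSeq gene table and 0 symbols needed an update. The brightest tested probe stood for a gene.

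Every detected member is named. Values per mouse are given for the brightest gene of each class, for the 12 genes of smallest unadjusted p and for genes without overlap, and 2 genes of smallest p come from each pathway list. Gsta1, Gsta2 and Ugt3a1 are also given per mouse, outside these rules. Gclm, Papss1, Papss2, Nfe2l2 and Nqo1 were named after their values were seen. Members, lists and tests were chosen with earlier results of these data known. An exact permutation of 3 against 3 mice cannot give a p below 0.1 and was not used. The labels do not say whether equal replicate numbers pair the mice. Deviations from the group means correlated at 0.004, 0.010 and 0.042 for equal numbers, against -0.055 to 0.041 for unequal ones. Such correlations cannot show that pairing by cage or litter was absent.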

Additional observations from a re-analysis of the deposited data

How the results depend on the processing

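The count of member genes past the threshold in limma stayed at 0 in every alternative run, an adjusted p under 0.1 included, and the lowest adjusted p of a member was 0.693, without control replicate 1. The number at an unadjusted p under 0.05 was 3 with no background correction, with no detection filter and with the mean of a gene's probes, 5 with the authors' values, and 2 with normexp, the strict filter, trend and robust eBayes or array weights. Leaving out each array in turn gave 0 to 4, with 0 without control replicate 3 and 4 without control replicate 1. The share of all named genes at that unadjusted limit is given for the main fit only. The member counts of the alternatives thus do not show whether members differed from other genes. Over all probes the count past the threshold was 3, against 5 with trend and robust eBayes, 0 with the replicate block and 2 whichever array was left out. The replicate block left the members at 0 past the threshold and 1 at an unadjusted p under 0.05. Detected genes numbered 32 where 3 or more arrays had to fall below 0.01 in detection p, 32 where all 6 had to fall below 0.05, and 33 to 34 without single arrays. The strict filter of the fit, a detection p under 0.01 on all 6 arrays, left 30. The log2 of the deposited intensity put the median of glutathione transferases at 9.95 and of sulfotransferases at 9.81, against 9.79 and 9.58. Of 34 genes 17 kept their sign in each of the 16 alternatives that gave them a value and 17 did not, and 0 of them had passed the threshold. The filters, trend and robust eBayes and the replicate block leave a log2 difference as it is, so they could not turn a sign. Nor could averaging probes in a gene with a single tested probe. In genes whose groups did not overlap, leaving out an array could turn a sign only through the renewed normalization. Under median scaling the log2 differences that turned were 0.086 for Gsta2, 0.0083 for Gstk1, 0.046 for Gsto1, 0.016 for Gstz1, 0.076 for Mgst3, 0.032 for Ugt1a6a and 0.031 for Ugt3a1. Array weights gave -0.012 for Gsta1. The mean of a gene's probes gave -0.17 for Gstm1, 0.058 for Mgst3, -0.0053 for Sult2b1, 0.14 for Ugt1a6a and 0.013 for Ugt3a1. Without single arrays the ranges of genes whose sign turned were -0.15 to 0.13 for Gsta1, -0.18 to 0.14 for Gsta2, -0.15 to 0.19 for Gsta4, -0.077 to 0.14 for Gstm1, -0.094 to 0.20 for Gstm5, -0.13 to 0.13 for Gsto1 and -0.23 to 0.21 for Gstp3, and -0.065 to 0.10 for Gstt1, -0.10 to 0.25 for Gstt3, -0.094 to 0.083 for Mgst3, -0.14 to 0.014 for Sult1c2, -0.055 to 0.16 for Sult1d1, -0.11 to 0.0051 for Ugt1a6a and -0.12 to 0.011 for Ugt3a1. The cause was not tested. Dim probes near the detection limit, Gstp3, Gsto2, Sult2b1 and Mgst2 among them, limit what can be read for those genes.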
